A study of Rattus norvegicus with 4 samples.

Results

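The AP-1 FOS and JUN family is the set of 7 rat genes Fos, Fosb, Fosl1, Fosl2, Jun, Junb and Jund, described here in rat INS-1 832/3 insulinoma cells grown in a bioprinted hydrogel or as a monolayer. The genes were taken by name from the deposited tables, which list 23360 gene symbols, and all 7 were found. Messenger RNA of 4 cultures was sequenced. The 2D group held 2 standard monolayer cultures, and the 3D group held 2 cultures printed in GelXA LAMININK 411, a gelatin-based gel with laminin. Printing pushed the cells through a nozzle under pressure, and the gel was then crosslinked with ultraviolet light. These steps belong to the 3D group only and cannot be told apart from growth in the gel. All were harvested after 5 days at passage 3. The line was grown in serum-containing medium with Geneticin, and whether both groups received the same medium was not checked. INS-1 832/3 is a clonal tumour line that carries a human insulin gene beside its own, so it is a tumour model of beta cells and not islet tissue.

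AP-1 is a transcription factor made of a pair of basic leucine zipper (bZIP) proteins, either a FOS with a JUN protein or a JUN with a JUN protein. FOS proteins need a JUN partner to bind DNA stably, while JUN proteins can pair among themselves. Several of the genes are immediate-early genes, which are transcribed within minutes of a stimulus without new protein synthesis, and in beta cells glucose and cAMP are known stimuli of some of them.

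Levels are given as TPM, the abundance of a transcript per unit of its length on a scale that sums to 1000000 in each culture, so that levels of different genes can be compared. All levels printed here are these values divided by a scaling factor per culture, between 0.960 and 1.02, so they no longer sum to exactly 1000000. The depth is unknown from the tables, because TPM does not keep it, and no counting interval is given. The tables list 31201 transcripts, of which 19611 and 19355 were above 0 in the 2D cultures and 19727 and 19959 in the 3D cultures. In 2D, 23.4% and 24.2% of TPM belonged to the 10 largest transcripts, and in 3D 26.4% and 26.9%. That share was higher in both 3D cultures, and its part in the differences described here was not tested.

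The cell type was checked on marker genes. Beta-cell markers were present, with 10 of 11 matched and all 10 tested, the lowest of them between 17.2 and 19.1 TPM. Their summed level was 146037 and 167199 TPM in 2D and 156804 and 166829 TPM in 3D, most of it from Ins1, a rat insulin gene, and the groups overlapped. Of the 10 markers, 2 were called higher, Pcsk2 (0.58 on the log2 scale) and Slc2a2 (0.39), and Ins2, which fell by 0.58, was called lower. These are shares of 20% and 10%, against 18.5% and 19.5% of all genes tested. The 3 genes are named after their values were seen, and Ins2 did not pass without the expression filter. The hormone markers of other islet cells summed to 41.7 and 77.3 TPM in 2D and 123 and 152 TPM in 3D. Nearly all of this was Gcg, the glucagon gene, which rose in 3D by 1.26 on the log2 scale (limma, adjusted p = 0.0217), and did not pass without the expression filter, and Ghrl was listed at 0. The part of this shift in the AP-1 differences was not tested. Fibroblast markers summed to 208 and 223 TPM in 2D and 179 and 206 TPM in 3D, almost all from Thy1, with Pdgfra, named after its values were seen, between 1.88 and 2.30 TPM, and Dcn and Lum listed at 0 in every culture. Endothelial markers summed to 1.07 and 1.19 TPM in 2D and 1.39 and 1.65 TPM in 3D, with Kdr the most abundant and Cdh5 listed at 0. Leukocyte markers, led by Cd68, summed to 0.944 and 0.661 TPM in 2D and 0.993 and 1.51 TPM in 3D, with Ptprc listed at 0. Exocrine and duct markers, led by Krt19, summed to 0.0273 and 0 TPM in 2D and 0.0749 and 0.127 TPM in 3D, with Cpa1, Prss1 and Cela1 listed at 0. The last 3 sums were higher in both 3D cultures than in both 2D cultures, as the called AP-1 members were. Neither Thy1 nor Pdgfra nor Kdr was called, and the part of these lists in the AP-1 differences was not tested.

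The comparison asked how transcript levels differ between printed and monolayer cells. Junb, Fosl2, Fos and Jun were higher in 3D culture, and Jund, the most abundant member, was above its 2D levels in both 3D cultures without passing the test. Fosb and Fosl1 were close to 0 in both groups. Of the 7 members, 5 had a mean of at least 1 TPM and were tested, and 4 of these 5 were called higher in 3D at an adjusted p below 0.05 in limma, against 18.5% of all 11960 genes tested (38% in either direction). Fos, which is among the 4, had a 2D mean below 1 TPM and passed the filter only through the 3D cultures. None was called lower, against 19.5% of all genes. At an unadjusted p below 0.05 in limma the counts were 5 higher and 0 lower, against 25% and 25.7% of all genes. Both 3D cultures lay above both 2D cultures in all 5 tested members, which was so in 37.3% of all genes tested, while the groups were apart in either direction in 75.5%. The cultures are bulk samples, in which fewer cells of a type and less RNA per cell cannot be told apart.

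**Figure D1:**
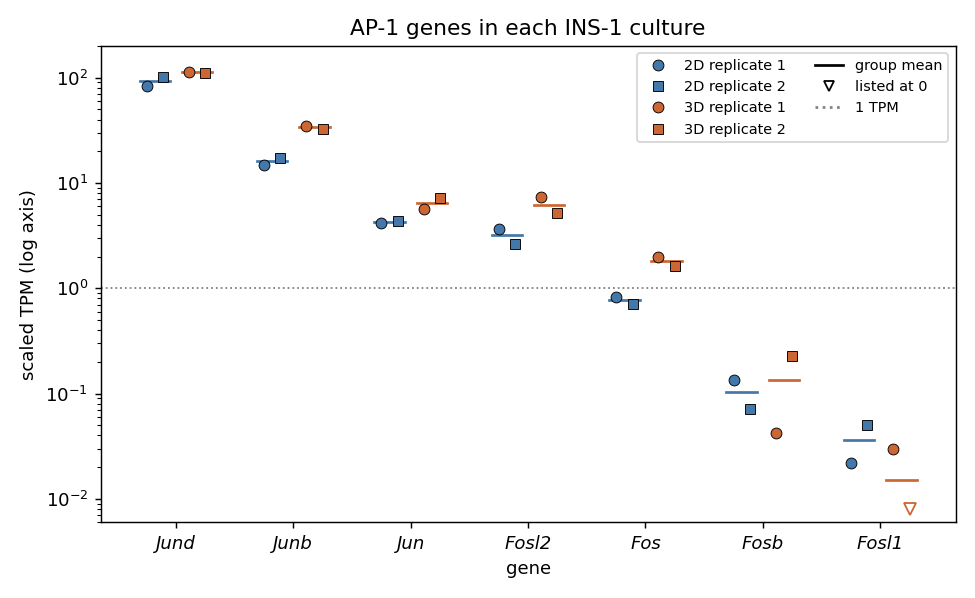
Scaled TPM of the 7 genes in each culture, on a log axis, with circles for replicate 1, squares for replicate 2 and a bar for the mean of each group; the open triangle is a value listed at 0. Jund stands near 100 TPM and Fosb and Fosl1 below 0.3 TPM, and the 2 groups are apart in the 5 genes above the dotted line or crossing it.

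Among the JUN genes, Junb had the smallest p. JunB is a JUN protein that activates transcription less strongly than c-Jun on single sites and can hold c-Jun activity down. Its promoter and that of Jund are printed because they belong to the member with the smallest p and to the most abundant member. The sequences are from RefSeq on build GRCr8, where 5 of the 7 members had an entry, and run 5′ to 3′ on the strand of the gene, from 250 bases before to 50 bases after its start. The Junb promoter lies on chr19:40080876-40081175, plus strand, and the Jund promoter on chr16:18769722-18770021, minus strand. Capitals mark matches to the searched motifs.
Junb: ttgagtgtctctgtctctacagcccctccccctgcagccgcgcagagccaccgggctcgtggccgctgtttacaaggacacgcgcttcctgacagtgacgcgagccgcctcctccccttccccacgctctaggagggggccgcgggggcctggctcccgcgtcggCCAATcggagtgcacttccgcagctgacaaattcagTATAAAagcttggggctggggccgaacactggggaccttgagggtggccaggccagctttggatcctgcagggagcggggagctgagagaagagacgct
Jund: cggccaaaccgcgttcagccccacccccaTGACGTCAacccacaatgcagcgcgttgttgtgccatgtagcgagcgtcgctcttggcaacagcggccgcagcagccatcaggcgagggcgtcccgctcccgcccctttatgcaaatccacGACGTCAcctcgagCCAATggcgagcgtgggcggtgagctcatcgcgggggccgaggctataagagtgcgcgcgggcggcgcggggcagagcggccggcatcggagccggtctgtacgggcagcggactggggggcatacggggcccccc

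The motifs were searched on both strands, and were chosen after the promoter sequences had been seen. They were TGACGTCA, the letters known for binding of CREB and ATF proteins, its shorter form GACGTCA, which lies within it, TGANTCA, the letters bound by AP-1 itself, the CArG box of serum response factor, TATAAA and CCAAT. The Junb window held TATAAA starting at -49 and CCAAT starting at -85, counted from the gene start. The Jund window held TGACGTCA at -221, a further GACGTCA at -100 and CCAAT at -86, and no TATAAA. Among 33469 promoter windows of 300 bases, TGACGTCA was present in 1.83%, GACGTCA in 3.22%, TATAAA in 14.2% and CCAAT in 37.5%. TGANTCA was present in 7.33% and a CArG box in 1.64%, and neither was found in the windows of the 5 members. These matches are descriptions of letters and no binding was measured.

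Junb was at 14.9 and 17.1 TPM in the 2D cultures and at 34.9 and 32.3 TPM in the 3D cultures. Both 3D values were far above both 2D values, and the spread within each group was small beside the gap. The mean was 16.0 ± 1.53 TPM (SD, n = 2) in 2D and 33.6 ± 1.85 TPM (SD, n = 2) in 3D, a ratio of 2.10. On the log2(TPM + 1) scale, which understates the change of low genes, Junb rose by 1.03 (standard error 0.086, 95% confidence interval 0.81 to 1.24, adjusted p = 0.00372 in limma). Of all genes tested, 208 had a larger log2 fold change, and Junb ranked 116 by p. It was also called at an adjusted p below 0.01, as 1 of the 5 tested members, where 6.05% of all genes were called higher.

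Jun encodes c-Jun, the founding JUN protein and the classical target of the JNK kinases. It was at 4.21 and 4.34 TPM in 2D and at 5.68 and 7.22 TPM in 3D. The 2D cultures were nearly equal, the 3D cultures differed from each other by more than 1 TPM, and the groups did not overlap. Its mean was 4.28 ± 0.0959 TPM (SD, n = 2) in 2D and 6.45 ± 1.09 TPM (SD, n = 2) in 3D, a ratio of 1.51. Jun rose by 0.49 on the log2 scale (standard error 0.12, adjusted p = 0.0282 in limma). This call was lost with no expression filter and with any culture left out, where the change ran from 0.34 to 0.64.

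Jund encodes JunD, the JUN protein found in most resting cells and the partner of menin, the product of the endocrine tumour gene MEN1. It was at 83.0 and 101 TPM in 2D and at 114 and 112 TPM in 3D. The 3D cultures were almost equal and above both 2D cultures, but the 2D cultures differed from each other by more than the gap between the higher 2D value and the lower 3D value. The mean was 92.0 ± 12.8 TPM (SD, n = 2) in 2D and 112.8 ± 1.44 TPM (SD, n = 2) in 3D, a ratio of 1.23. The log2 fold change of 0.30 (95% confidence interval 0.051 to 0.54) did not pass the threshold, with an adjusted p of 0.0618 in limma. The interval is not adjusted for the number of genes tested. The log2 fold change was 0.15 without 2D replicate 1 and 0.44 without 2D replicate 2.

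Among the FOS genes, Fosl2, which encodes Fra-2, was the most abundant. Fra-2 lacks the strong activation domain of c-Fos. Fosl2 was at 3.69 and 2.66 TPM in 2D and at 7.29 and 5.16 TPM in 3D. The groups did not overlap, and within each group replicate 1 was the higher culture. The mean was 3.17 ± 0.731 TPM (SD, n = 2) in 2D and 6.23 ± 1.51 TPM (SD, n = 2) in 3D, a ratio of 1.96. Fosl2 rose by 0.79 on the log2 scale (standard error 0.19, 95% confidence interval 0.32 to 1.26, adjusted p = 0.0259 in limma).

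Fos encodes c-Fos, the best known immediate-early protein, whose mRNA is short-lived. It was at 0.832 and 0.716 TPM in 2D and at 2.00 and 1.64 TPM in 3D. Both 2D cultures were below 1 TPM and both 3D cultures above it. The mean was 0.774 ± 0.0817 TPM (SD, n = 2) in 2D and 1.82 ± 0.254 TPM (SD, n = 2) in 3D, a ratio of 2.35, the largest among the 5 tested members. Fos rose by 0.66 on the log2 scale with a pseudocount of 1 (standard error 0.14, adjusted p = 0.0175 in limma) and by 1.13 with a pseudocount of 0.1. Its mean in 2D lay below the limit of 1 TPM, so that it passed the filter through the 3D cultures.

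Fosb and Fosl1 encode FosB and Fra-1. Fosb was at 0.134 and 0.0711 TPM in 2D and at 0.0424 and 0.227 TPM in 3D, and Fosl1 at 0.0219 and 0.0503 TPM in 2D and at 0.0300 TPM in 3D replicate 1, with 3D replicate 2 listed at 0. The groups overlapped in both genes, which were below the filter and not tested. Fosb has 2 listed transcripts, of which ENSRNOT00000091687.1 was listed at 0 in 3 cultures and at 0.193 TPM in 3D replicate 2. The other transcript was at 0.134 and 0.0711 TPM in 2D and at 0.0424 and 0.0339 TPM in 3D. The other 6 members have a single listed transcript each, so a gene's value is that of its transcript.

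**Figure D2:**
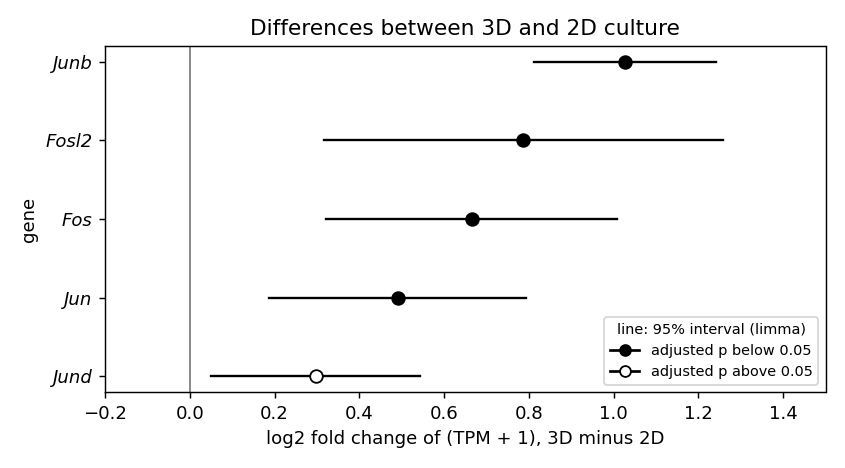
Log2 fold change of (TPM + 1), 3D minus 2D, of the 5 tested genes, with lines for the 95% confidence interval of limma. Filled points passed an adjusted p of 0.05, and the open point, Jund, did not.

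The plot of fold changes shows that the intervals of Fosl2, Fos and Jun overlap widely, so their order by size is not set by these cultures, and differences between members were not tested. The smallest two-sided p that an exact permutation test allows with groups of 2 is 0.33, so the calls depend on limma's pooling of the spread over genes. Some or all of the calls among the 4 called members were lost with each culture left out, which leaves 1 culture in a group. Log2 fold changes then ran from 0.57 to 0.76 for Fos and 0.57 to 1.00 for Fosl2. They ran from 0.34 to 0.64 for Jun, 0.93 to 1.12 for Junb and 0.15 to 0.44 for Jund.

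**Figure D3:**
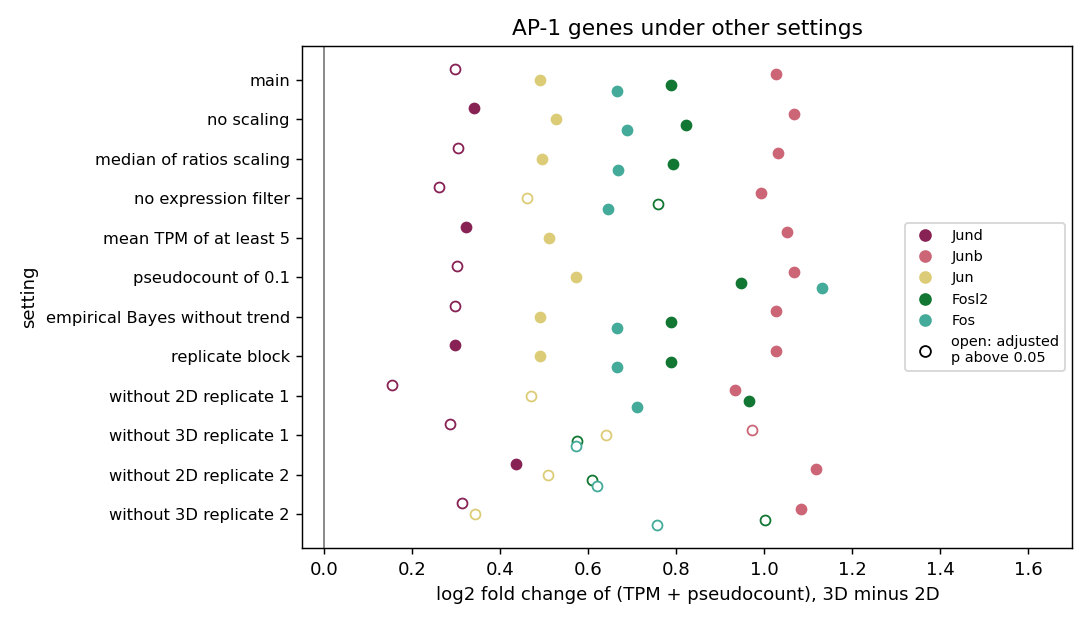
Log2 fold change, 3D minus 2D, of the 5 tested genes under each setting and with each culture left out, with filled points for an adjusted p below 0.05 in limma. All points lie above 0, and with 3D replicate 1 left out every point is open.

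The plot of the settings shows which calls were lost. With no expression filter, Fosl2 (adjusted p = 0.0725 in limma) and Jun (adjusted p = 0.0770 in limma) did not pass. Jund passed without scaling (adjusted p = 0.0265 in limma) and with a filter of 5 TPM (adjusted p = 0.0366 in limma). It also passed with the replicate number as a block (adjusted p = 0.0314 in limma), though these numbers did not pair the cultures.

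In both groups the order of the means was Jund, Junb, Jun, Fosl2, Fos, Fosb and Fosl1. In 2D no neighbours in that order overlapped. In 3D, Jun and Fosl2 could not be ordered, as Fosl2 was the higher in replicate 1 (7.29 against 5.68 TPM) and Jun in replicate 2 (7.22 against 5.16 TPM). Jund was 5.74 times as abundant as Junb in 2D and 3.35 times in 3D by group means. By the mean over all 4 cultures, 2D and 3D together, Jund was above 90.1% of the genes tested, Junb above 62.9%, Jun above 21.9%, Fosl2 above 19.4% and Fos above 2.25%.

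Junb took a larger and Jund a smaller share of the family's transcripts in 3D. The summed TPM of the 7 genes was 107 and 126 in 2D and 164 and 158 in 3D, with no overlap. Jund made up 78.9% ± 1.78 (SD, n = 2) of that sum in 2D and 70.0% ± 0.782 (SD, n = 2) in 3D. Junb made up 13.8% ± 0.293 (SD, n = 2) in 2D and 20.9% ± 0.649 (SD, n = 2) in 3D. Both shares were apart between the groups by more than their spread, and they were not tested. The ratio of Jund to Junb, 5.55 and 5.91 in 2D, was 3.26 and 3.46 in 3D. The ratio of Junb to Jun was 3.55 and 3.94 in 2D and 6.15 and 4.48 in 3D, with a wide spread in 3D.

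**Figure D4:**
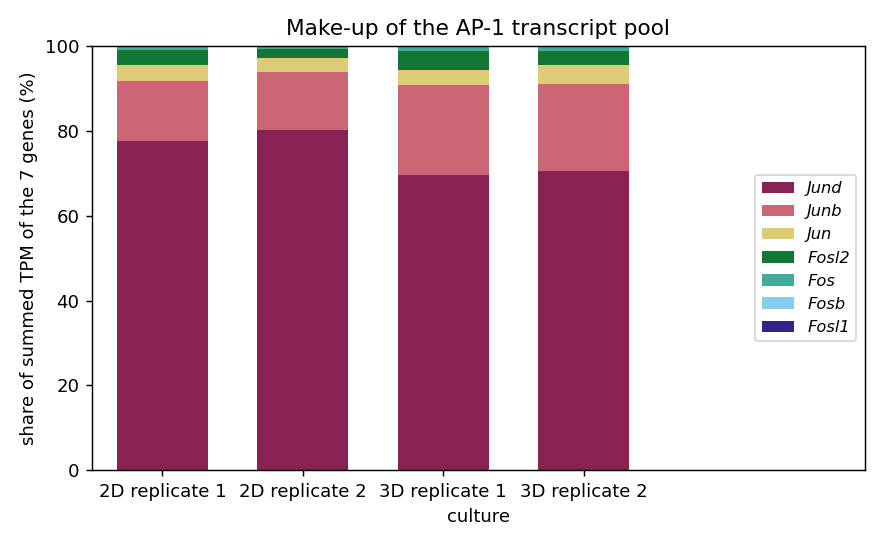
Share of each gene in the summed TPM of the 7 genes, in percent, with a bar for each culture. Junb takes 14.0% and 13.6% in the 2D cultures and 21.3% and 20.4% in the 3D cultures.

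The plot of shares also shows how small the FOS branch was at the mRNA level. Its 4 genes summed to 4.68 and 3.50 TPM in 2D and 9.36 and 7.03 TPM in 3D, and the 3 JUN genes to 102 and 123 TPM in 2D and 154 and 151 TPM in 3D. JUN transcripts outnumbered FOS transcripts 21.8 and 35.1 times in 2D and 16.5 and 21.5 times in 3D. The lowest 2D ratio and the highest 3D ratio were closer to each other than the replicates of either group. Within the FOS branch, Fosl2 made up 77.5% ± 2.02 (SD, n = 2) in 2D and 75.7% ± 3.14 (SD, n = 2) in 3D, a difference within the spread. Fos made up 19.1% ± 1.92 (SD, n = 2) in 2D and 22.3% ± 1.40 (SD, n = 2) in 3D.

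Each transcript was also tested on its own, over 15018 transcripts with a mean of at least 1 TPM. Only Junb (ENSRNOT00000067780.3) was called there, with an adjusted p of 0.0157 in limma, where 11.4% of all transcripts were called higher. The TPM values were those of the genes, and the adjusted p was 0.0559 for Fos, 0.0592 for Fosl2, 0.0623 for Jun and 0.105 for Jund in limma.

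The genes whose pattern over the 4 cultures was most like that of Junb were sought among 7612 genes with a mean of at least 10 TPM, by the Euclidean distance of log2(TPM + 1) after each gene's mean was taken off. They were Gcgr, the glucagon receptor, at a distance of 0.044, Diras2 at 0.051, Cacna1h, a T-type calcium channel subunit, at 0.063, Gpx3 at 0.077 and Nxph4 at 0.079. Gcgr was at 52.2 and 58.5 TPM in 2D and at 120.7 and 113 TPM in 3D. With 4 cultures, such likeness says little beyond a shared difference between the groups. Jund, the other member with a mean above 10 TPM, was at a distance of 0.73 and ranked 983.

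**Figure D5:**
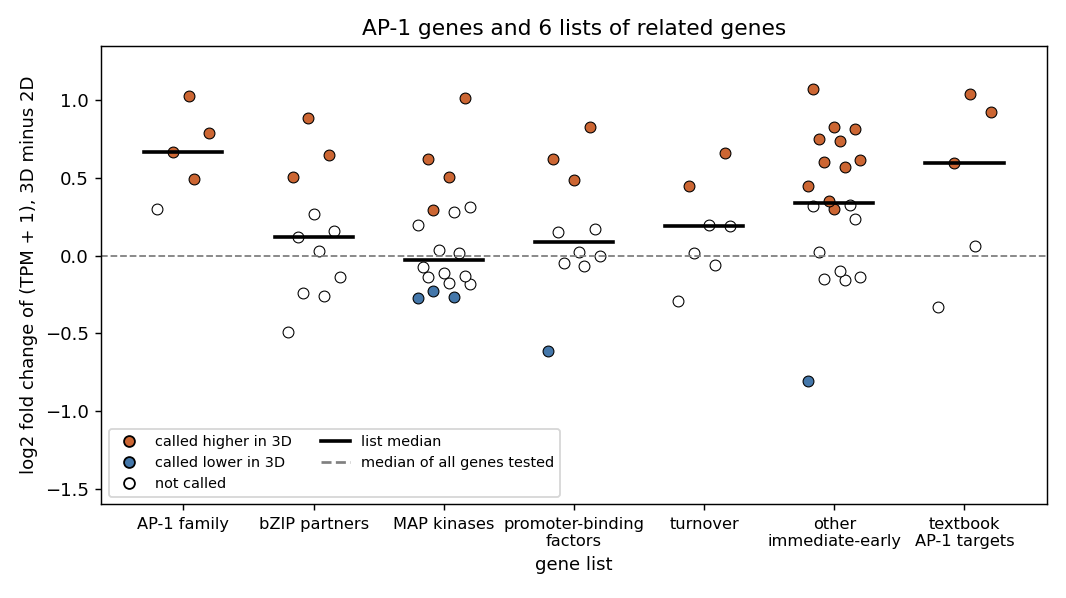
Log2 fold change of (TPM + 1), 3D minus 2D, of each tested gene in the AP-1 family and in 6 lists of related genes, with filled points for calls, a bar for the median of each list and a dashed line for the median of all genes tested. The medians of the AP-1 family and the AP-1 targets are 0.66 and 0.59 here and 0.46 and 0.16 with no expression filter.

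The plot of the lists sets the family beside genes of its pathway. The median log2 fold change was 0.66 over the 5 tested members and -0.0031 over all genes tested. The former is the value of Fos itself, which passed the filter only through the 3D cultures. The median was 0.46 over all 7 members with no filter and 0.51 over the 3 with a mean of at least 5 TPM. The calls in each list stand beside the 18.5% of all genes called higher and the 19.5% called lower. The bZIP proteins outside the family can pair or compete with FOS and JUN proteins. Of 14 listed, 11 were tested, 3 were called higher and 0 lower, with a median of 0.12, and at an unadjusted p below 0.05 in limma the counts were 3 and 2, against 25% and 25.7% of all genes. The median was 0.055 with a filter of 5 TPM and ran from 0.043 (without 3D replicate 1) to 0.18 (without 3D replicate 2) with a culture left out. Atf3, a stress-induced factor, rose from 1.05 ± 0.270 to 2.77 ± 0.0410 TPM (SD, n = 2), Atf7 from 5.06 ± 0.869 to 8.49 ± 1.11 TPM (SD, n = 2) and Mafk, a small MAF protein, from 22.7 ± 0.325 to 32.6 ± 2.29 TPM (SD, n = 2). Atf7 did not pass without the expression filter. Atf4, at 205 TPM in 2D and 186 TPM in 3D, and Mafa, a beta-cell factor at 132 TPM in 2D and 147 TPM in 3D, were not called.

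Upstream of AP-1, the MAP kinases pass signals from the cell surface to FOS and JUN proteins and genes. Of 19 listed, 18 were tested, 4 were called higher and 3 lower, shares of 22.2% and 16.7% that are near those of all genes, with a median of -0.03 that was -0.061 without 2D replicate 2. Without scaling it was 0.01, where the median of all genes moved with it, from -0.0031 to 0.036. Rps6ka3, the kinase RSK2, rose from 8.30 to 13.3 TPM, Map2k4, a kinase of JNK, from 27.9 to 34.4 TPM and Map3k1 from 2.59 to 4.08 TPM. Map2k1, the ERK kinase MEK1, fell from 38.9 to 32.0 TPM. Map3k1 did not pass without the expression filter. The other calls of the list, named after their values were seen, were Map2k3 (1.01 on the log2 scale, at 10.3 and 5.57 TPM in the 3D cultures), Map2k2, which fell by 0.23, and Map2k5, which fell by 0.27. Map2k3 did not pass with no filter, Map2k2 without the trend and Map2k5 without scaling. The transcription factors that bind promoters of Fos and Jun genes had 10 of 12 tested, 3 called higher and 1 lower, shares of 30% and 10%, with a median of 0.085 that turned to -0.015 with no expression filter and was 0.13 without 2D replicate 1. Crem, a relative of CREB, rose from 44.8 ± 1.66 to 80.2 ± 2.83 TPM (SD, n = 2), or by 0.83 on the log2 scale (limma, adjusted p = 0.00348). Stat3 rose by 0.62 and Ets2 by 0.49 on the log2 scale, and Elk3 fell by 0.62.

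Of the 8 genes for turnover of AP-1 mRNA and protein, 7 were tested, 2 were called higher and 0 lower, with a median of 0.19, against 3 and 1 at an unadjusted p below 0.05 in limma. The median was 0.071 with no filter and 0.018 without 2D replicate 2. Zfp36, which encodes the mRNA-destabilising protein tristetraprolin, rose from 7.96 ± 0.747 to 11.2 ± 1.05 TPM (SD, n = 2). Fbxw7, a ubiquitin ligase subunit that acts on c-Jun, rose from 20.3 ± 5.04 to 32.1 ± 0.165 TPM (SD, n = 2). Neither passed without the expression filter. The log2 fold change of Fbxw7 was 0.66 with all cultures, 0.41 without 2D replicate 2 and 0.90 without 2D replicate 1.

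Of 26 other immediate-early genes, 20 were tested, 11 were called higher and 1 lower, with a median of 0.34. Dusp5, an ERK phosphatase, went from 10.9 and 11.7 TPM in 2D to 25.9 and 24.0 TPM in 3D and rose by 1.08 on the log2 scale (limma, adjusted p = 0.00348). Dusp6, also an ERK phosphatase, rose by 0.83, Klf10 by 0.81 and Nr4a1, an orphan nuclear receptor, by 0.75 on the log2 scale. The gene called lower, named after its value was seen, was Klf2, which fell by 0.81. Parts of this list had been seen to rise in these data before, so its count is no independent evidence.

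Of 19 textbook AP-1 target genes, 5 were tested, and 14 were below the filter, 7 of them listed at 0 in all 4 cultures. Of the 5, 3 were called higher and 0 lower, with a median of 0.59 and the same counts at an unadjusted p below 0.05 in limma. With no filter 12 were tested and the median was 0.16, and without 2D replicate 1 it was 0.37. Hbegf, an EGF receptor ligand, went from 8.10 and 7.76 TPM in 2D to 17.0 and 17.7 TPM in 3D and rose by 1.04 on the log2 scale (limma, adjusted p = 0.00348). Vegfa, the vascular growth factor, was at 155 and 142 TPM in 2D and at 242 and 209 TPM in 3D, and Timp1, a metalloproteinase inhibitor, rose from 3.42 ± 0.905 to 7.28 ± 0.346 TPM (SD, n = 2). All 3 are also under the control of other factors, and no AP-1 protein or binding was measured.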

How the data were processed

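Messenger RNA of 4 cultures was sequenced as single-end reads of stranded libraries. After FastQC 0.11.8, Salmon 1.2 was run by the authors on a reference named rn4 to which human insulin had been added, and its TPM per transcript were deposited, written with decimal commas. The count-based test named in the methods needs counts, which TPM do not carry, and was not repeated. Groups and replicate numbers came from the sample labels.

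Transcripts of a symbol were added up to a gene. Of these, genes averaging at least 1 TPM were kept. Scaling used an unweighted TMM factor per culture, from 0.960 to 1.02, with trims of 30% on M and 5% on A. The test was limma 3.58.1 in R 4.3.3, with empirical Bayes and trend, on log2(TPM + 1). P-values are two-sided and were adjusted by Benjamini-Hochberg over 11960 genes. The authors call the cultures biological replicates. No 2 cultures shared an identical value above 0.

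The members and lists were chosen with earlier results of these data known. Named genes were all 7 members; in each pathway list up to 4 called genes with the smallest p and any gene with a mean of at least 100 TPM; the 5 genes nearest to the member with the smallest p; and of each marker list the most abundant gene and those listed at 0. Any gene beyond these is said in the text to be named after its values were seen. Symbols of 4 listed genes, Mrtfb, G6pc2, Col1a2 and Pecam1, were not matched and not analysed here.

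Alternatives were the scaling, the filter, the pseudocount, the empirical Bayes trend, the replicate block, the threshold, single transcripts and each culture left out. The steps were tested on simulated TPM. Promoters came from RefSeq on GRCr8, and no coordinates of the authors' reference were used.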

Additional observations from a re-analysis of the deposited data

How the results depend on the processing

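All 5 tested members were above 0 in log2 fold change under every alternative in which they were tested. The count of 4 called members was 2 with no expression filter, where 1627 of all 16749 genes tested were called higher. At a threshold of 0.01 it was 1, where 6.05% of all genes were called higher. Some or all of the calls among the 4 were lost with each culture left out, which leaves 1 culture in a group. The count over all genes, 4541, was 1418 at 0.01 and ran from 136 (without 3D replicate 1) to 4515, with 1037 without 3D replicate 2. Of the genes of the pathway lists, which leave out the family and the marker genes, 31 were called, and 14 at 0.01. The count for these lists was 3 (without 3D replicate 1) to 33 with a culture left out, with 14 without 3D replicate 2. By transcript 1 member was called against 4 by gene. A lone culture of a group was assumed to vary like the other group.

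At 0.01, Fos (0.66), Fosl2 (0.79) and Jun (0.49) did not pass. With no expression filter, Fosl2 (0.76) and Jun (0.46) did not pass, and more genes were tested there; the cause was not tested. Fos and Fosl2 have a mean below 5 TPM and have no value under that filter. Jund passed without scaling (0.34) and with the 5 TPM filter (0.32); the cause was not tested. With a culture left out, log2 fold changes ran from 0.57 to 0.76 for Fos, 0.57 to 1.00 for Fosl2, 0.34 to 0.64 for Jun, 0.93 to 1.12 for Junb and 0.15 to 0.44 for Jund. Fos and Fosl2 passed only without 2D replicate 1, Jun in no case, Junb in 3 of 4 (adjusted p = 0.0525 in limma without 3D replicate 1), and Jund only without 2D replicate 2.

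The replicate numbers did not pair the cultures, as deviations of same-numbered cultures had a correlation of -0.006 across genes. With the number as a block, 5 members, 4814 genes and 36 genes of the pathway lists were called, and Jund passed (0.30, adjusted p = 0.0314 in limma). Of 267 values of 39 other tested genes named, with all cultures, 258 kept their call and direction and 9 missed the threshold (Atf7, Map3k1, Zfp36, Fbxw7, Gcg, Ins2 and Map2k3 with no filter, Map2k2 without the trend, Map2k5 without scaling). Of 156 values with a culture left out, 55 missed it and 1 changed direction, that of Ins1, which was not called (0.10 with all cultures, -0.015 without 2D replicate 1 and 0.21 without 2D replicate 2). The TPM tables carry no depth, so no detection limit is given for the low values of Fosb and Fosl1.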
